A study of Mus musculus with 59 samples.

Results

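The genes described here encode the proteins that shape a red cell and the factors that switch those proteins on. They comprise the erythropoietin receptor, the transcription factors of red cell precursors, the membrane skeleton, blood group and surface proteins, carbonic anhydrases, and carriers and other genes of late red cell precursors. Of 34 genes listed, 30 were found among the 18193 genes of the array, through 54 probe sets that the platform annotation assigns to exactly 1 gene symbol, and 10 of the 30 had several such probe sets. Bnip3l, which helps to clear mitochondria from maturing red cells, was named only by 3 probe sets that carry a second symbol. Ahsp, Trim58 and Epb41 were not found by that rule, and none of these 4 genes was analysed here. All 30 genes passed the brightness filter in bone marrow and in spleen.

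Red cell precursors multiply under erythropoietin, which signals through its receptor. GATA1, KLF1 and TAL1 then drive the genes of haemoglobin and of the membrane, where band 3, ankyrin, protein 4.2 and spectrin hold the lipid bilayer to the skeleton below it. In the adult mouse the marrow makes red cells, and the spleen makes them as well and enlarges that output when the demand for red cells is high.

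Bone marrow from the right humerus, spleen and liver came from B6C3F1 mice that received baclofen, an agonist of the GABA-B receptor used as a muscle relaxant, or the vehicle, 0.5% methylcellulose. Dosing was daily for 1 or 5 days, with collection 2 h after the final dose. The labels do not give the amount of baclofen. Marrow and spleen each had 4 baclofen and 4 vehicle arrays after 1 dose, and 8 baclofen and 4 vehicle arrays after 5 doses. Liver had 4 baclofen and 3 vehicle arrays after 1 dose, and 8 and 4 after 5. All groups share the strain, and the labels name no other agent or allele. Replicates are numbered in the labels, but whether each came from its own mouse is not spelled out, and p-values measure only the spread between these samples. Arrays give no read counts, and precision is limited by how many arrays a group has.

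Array medians lay between 72.6 and 76.1 intensity units in marrow, between 74.3 and 77.6 in spleen and between 34.7 and 36.8 in liver, and the tissues appear to have been normalized apart. Marrow and spleen RNA were also extracted with different kits, per the labels. Levels are therefore compared within a tissue, and between tissues only as the difference between treatments. The markers matched the tissue names. The mean of 12 neutrophil markers was 13.14 to 13.58 on the log2 scale in marrow and 8.39 to 10.77 in spleen, and that of 9 T cell markers was 7.28 to 7.65 in marrow and 8.64 to 9.55 in spleen. Skeletal muscle markers averaged 9.88 in marrow baclofen 1-day replicate 3. Hepatocyte markers in spleen averaged 9.996 in baclofen 5-day replicate 5, 10.15 in vehicle 5-day replicate 3 and 7.51 in vehicle 5-day replicate 1. These 4 libraries stand apart, of the spleens vehicle 5-day replicate 1 the least. The hepatocyte mean of the vehicle 5-day spleens had a lowest value of 5.21 and a median of 6.84, while spleens after 1 dose lay at 4.85 to 5.13. The vehicle 5-day spleens not named here are therefore not shown to be free of liver transcripts. Below, libraries with transcripts of another tissue means these 4. Counts and medians that moved without these libraries are given both ways.

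Promoter sequences were at hand from RefSeq (build GRCm38.p6) for 23 of the 30 genes, as 27 windows that run from 250 bases before to 50 bases after a gene start. The 4 shown belong to the erythropoietin receptor gene, to the gene of the factor KLF1, and to 2 of the genes described by sample below, Kel and Tmcc2. All 4 hold a GATA word, which 15 of the 27 windows do. Tmcc2 has 3 windows, of which the others hold 0 GATA words and 0 CACCC boxes. Capitals mark GATA words (AGATAA or AGATAG, and with an initial T in place of the A, TGATAA or TGATAG, on either strand) and the CACCC box (CCACACCC, CCGCACCC, CCCCACCC or CCTCACCC, likewise).
Epor, chr9:21963527-21963826, minus strand: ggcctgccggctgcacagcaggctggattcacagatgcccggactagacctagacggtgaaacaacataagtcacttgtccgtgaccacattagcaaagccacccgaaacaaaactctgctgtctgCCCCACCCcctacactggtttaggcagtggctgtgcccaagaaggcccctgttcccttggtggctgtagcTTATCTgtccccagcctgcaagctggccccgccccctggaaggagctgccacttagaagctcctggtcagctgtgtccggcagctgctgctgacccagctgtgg
Klf1, chr8:84901732-84902031, plus strand: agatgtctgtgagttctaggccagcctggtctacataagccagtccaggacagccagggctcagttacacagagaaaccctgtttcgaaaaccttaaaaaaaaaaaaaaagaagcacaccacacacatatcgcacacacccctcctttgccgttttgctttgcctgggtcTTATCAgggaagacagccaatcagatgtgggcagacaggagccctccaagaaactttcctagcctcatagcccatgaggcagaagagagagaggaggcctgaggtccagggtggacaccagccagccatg
Kel, chr6:41704276-41704575, minus strand: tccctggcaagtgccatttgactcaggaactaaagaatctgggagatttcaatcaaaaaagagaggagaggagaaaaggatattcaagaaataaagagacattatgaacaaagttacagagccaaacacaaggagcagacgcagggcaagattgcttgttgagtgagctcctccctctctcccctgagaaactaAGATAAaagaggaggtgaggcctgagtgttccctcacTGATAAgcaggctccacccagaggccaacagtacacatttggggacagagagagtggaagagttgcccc
Tmcc2, chr1:132367899-132368198, minus strand: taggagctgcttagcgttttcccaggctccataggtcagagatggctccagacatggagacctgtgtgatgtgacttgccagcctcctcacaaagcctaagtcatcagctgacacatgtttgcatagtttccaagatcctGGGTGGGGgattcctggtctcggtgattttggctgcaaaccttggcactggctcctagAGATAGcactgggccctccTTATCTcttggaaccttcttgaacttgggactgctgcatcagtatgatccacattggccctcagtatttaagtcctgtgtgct
The first base of the GATA word lay 54 bases before the start in Epor, 80 bases before it in Klf1, 56 and 19 bases before it in Kel, and 52 and 33 bases before it in Tmcc2. A CACCC box began 124 bases before the start in Epor and 110 bases before it in Tmcc2. A GATA word was present in 15 of the 27 windows, or 55.6%, against 29.8% of 32851 windows of the same length over all genes. For the CACCC box the share was 18.5%, against 16.6% of all windows, and for the E-box CANNTG it was 74.1%, against 72.3%. These matches describe letters in the windows and show no binding.

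After 5 doses, 23 of the 30 red cell genes rose in marrow and 0 fell (limma, adjusted p under 0.05). The rises were small and alike. The largest was that of Tmod1, the gene of the tropomodulin that caps the actin filaments of the membrane skeleton, by 0.59 ± 0.14 on the log2 scale (SE). Epor rose 1.44-fold. The median log2 difference over the 30 genes was 0.44, with 29 of 30 above 0, while the median over all 10916 genes tested was -0.002. The share of members that rose was 76.7%, while among all genes tested 10.1% passed, 6.15% higher and 3.93% lower. In 8 of the 30 genes every baclofen marrow lay above every vehicle marrow (3.53% of all genes did so), and in 0 did the reverse hold (1.72% of all genes). In bulk tissue, a change in the number of cells of a type and a change in RNA per cell cannot be told apart.

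**Figure D1:**
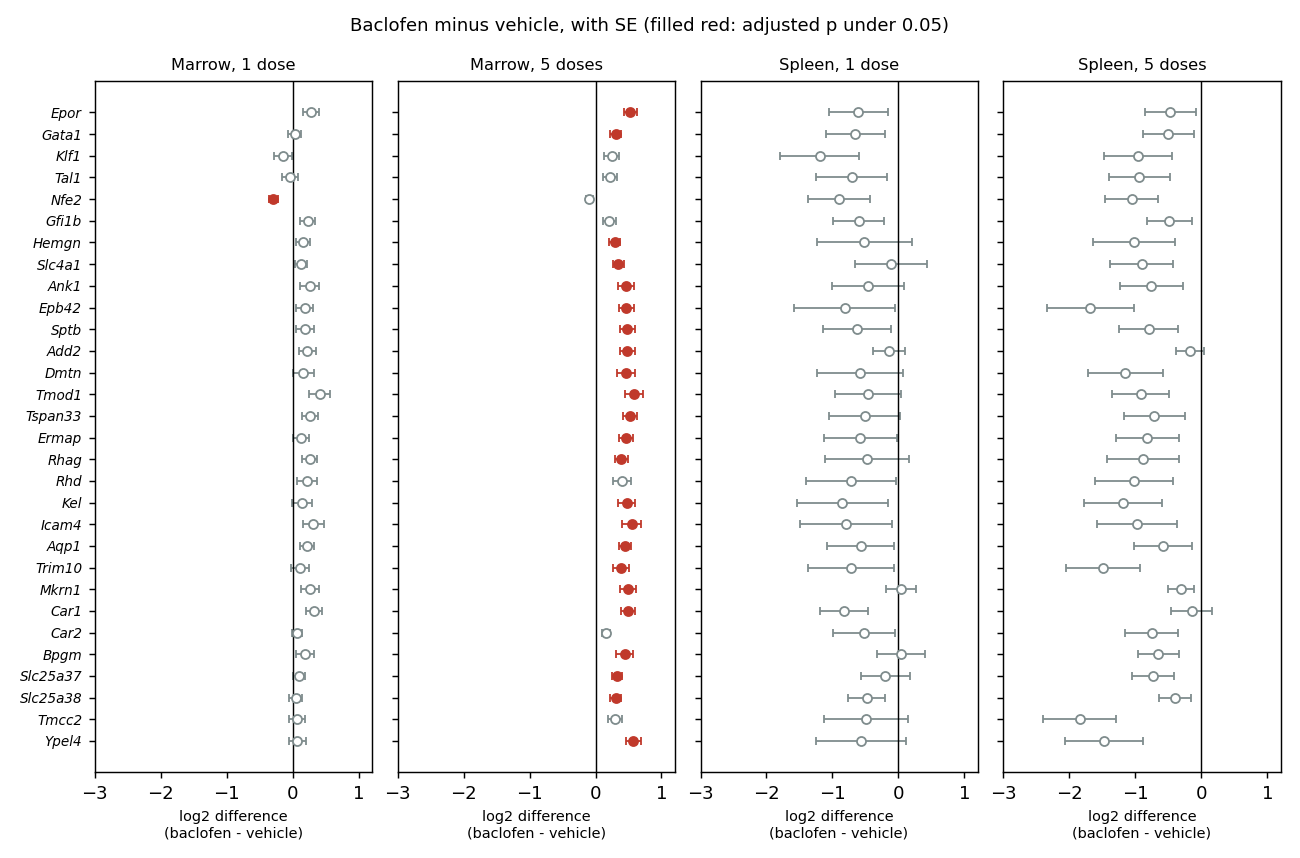
Log2 difference between baclofen and vehicle for the 30 red cell genes, with its standard error, in marrow after 1 and 5 doses and in spleen after 1 and 5 doses (x axis, log2 units). Filled red points passed limma at an adjusted p under 0.05. In marrow after 5 doses 23 genes are filled to the right of 0, and in spleen all 30 points after 5 doses lie to the left of 0 and none is filled.

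Of the receptor and the 6 factors, 3 of 7 rose in marrow after 5 doses. Epor, the receptor itself, whose promoter window holds both a GATA word and a CACCC box, had a lowest, median and highest log2 intensity of 10.13, 10.51 and 10.65 in the 8 baclofen marrows, against 9.55, 10.08, 9.94 and 9.999 in the 4 vehicle marrows. The groups did not overlap. Epor rose by 0.53 ± 0.10 (SE, limma adjusted p = 0.00519). Gata1, whose product is the master factor of red cell and platelet precursors, stood at 10.60, 10.80 and 10.92 in baclofen marrow, against 10.27, 10.63, 10.58 and 10.46 in vehicle marrow. Only the ends of these ranges met, and Gata1 rose by 0.31 ± 0.08 (adjusted p = 0.0276). Hemgn, a nuclear protein of blood precursors, rose by 0.29 ± 0.09 (adjusted p = 0.0454).

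The other 4 factors did not pass. Klf1, the gene of the factor that activates adult beta globin, stood at 12.11, 12.48 and 12.72 in baclofen marrow, against 11.78, 12.51, 12.31 and 12.20 in vehicle marrow. These ranges overlapped over most of their length, and the difference was 0.25 ± 0.12 (SE, limma adjusted p = 0.177). Tal1, the partner of GATA1 in the core factor complex, differed by 0.22 ± 0.11, and Gfi1b, a repressor in red cell and platelet precursors, by 0.21 ± 0.10. Nfe2, a subunit of a globin-enhancer factor that platelet formation also needs, was the only member below 0, at -0.09 ± 0.06.

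All 7 membrane skeleton genes rose in marrow after 5 doses, with a median of 0.47. Add2 encodes beta adducin, which joins spectrin to actin. Its 8 baclofen marrows ran from 9.04 over a median of 9.30 to 9.53, against 8.48, 9.08, 8.91 and 8.84 in vehicle marrow. Only vehicle replicate 2 reached into the baclofen range, and Add2 rose by 0.48 ± 0.11 (limma adjusted p = 0.0129). Epb42, the gene of protein 4.2, stood at 10.16, 10.32 and 10.59 in baclofen marrow, against 9.47, 9.91, 9.91 and 10.16 in vehicle marrow. The groups just failed to meet, and Epb42 rose by 0.47 ± 0.11 (adjusted p = 0.018). Slc4a1, the gene of the anion exchanger band 3, rose by 0.35 ± 0.08, Sptb, beta spectrin, by 0.48 ± 0.12, Ank1, ankyrin, by 0.46 ± 0.12, and Dmtn, dematin, by 0.46 ± 0.14.

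Among the surface proteins 6 of 7 rose, with a median of 0.46. Tspan33, a tetraspanin gene of red cell precursors, stood at 12.07, 12.36 and 12.48 in baclofen marrow, against 11.43, 11.97, 11.85 and 11.97 in vehicle marrow. The groups did not overlap, and the rise was 0.52 ± 0.10 (limma adjusted p = 0.00746). Kel, the gene of the Kell blood group protein, stood at 11.08, 11.54 and 11.69 in baclofen marrow, against 10.53, 11.31, 11.14 and 11.14 in vehicle marrow. The ranges overlapped, and Kel rose by 0.47 ± 0.13 (adjusted p = 0.0299). Icam4, an adhesion protein, rose by 0.55 ± 0.14, Ermap, the Scianna blood group protein, by 0.46 ± 0.10, the water channel gene Aqp1 by 0.45 ± 0.09, and Rhag, the Rh-associated glycoprotein, by 0.39 ± 0.10. Rhd, the Rh blood group gene, had a difference of 0.40 ± 0.13 and missed the threshold (adjusted p = 0.0574).

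Mkrn1, which encodes an E3 ubiquitin ligase, and Trim10, a gene linked to the maturation of red cell precursors in mice, both rose in marrow after 5 doses. Mkrn1 ran from 12.64 over a median of 12.90 to 13.07 in baclofen marrow, against 12.19, 12.33, 12.31 and 12.76 in vehicle marrow, a rise of 0.49 ± 0.12 (limma adjusted p = 0.018). Trim10 ran from 12.03 over 12.45 to 12.54 in baclofen marrow, against 11.51, 12.15, 12.04 and 12.30 in vehicle marrow, a rise of 0.39 ± 0.12 (adjusted p = 0.0455). In each gene 1 or more vehicle marrows lay inside the baclofen range.

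The enzyme genes split. Car1, carbonic anhydrase 1, stood at 11.89, 12.24 and 12.38 in baclofen marrow, against 11.46, 11.82, 11.84 and 11.76 in vehicle marrow. The groups did not overlap, and Car1 rose by 0.49 ± 0.11 (limma adjusted p = 0.0123). Bpgm, which makes the 2,3-bisphosphoglycerate that lowers the oxygen affinity of haemoglobin, rose by 0.44 ± 0.12. Car2, which other marrow cells such as osteoclasts also express, had a difference of 0.16 ± 0.06 and did not pass (adjusted p = 0.106).

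Of the last 4 genes 3 rose. Ypel4, a gene of the yippee-like family, stood at 9.46, 9.62 and 9.74 in baclofen marrow, against 8.62, 9.21, 9.03 and 9.32 in vehicle marrow. The groups did not overlap, and Ypel4 rose by 0.57 ± 0.11 (limma adjusted p = 0.00694). The mitochondrial carrier genes Slc25a37, mitoferrin 1, and Slc25a38, the glycine carrier of haem synthesis, rose by 0.33 ± 0.08 and 0.31 ± 0.09. Tmcc2 had 12.87, 13.05 and 13.16 in baclofen marrow, against 12.33, 12.79, 12.73 and 13.12 in vehicle marrow. Its ranges overlapped, and the difference of 0.29 ± 0.10 did not pass (adjusted p = 0.0769).

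**Figure D2:**
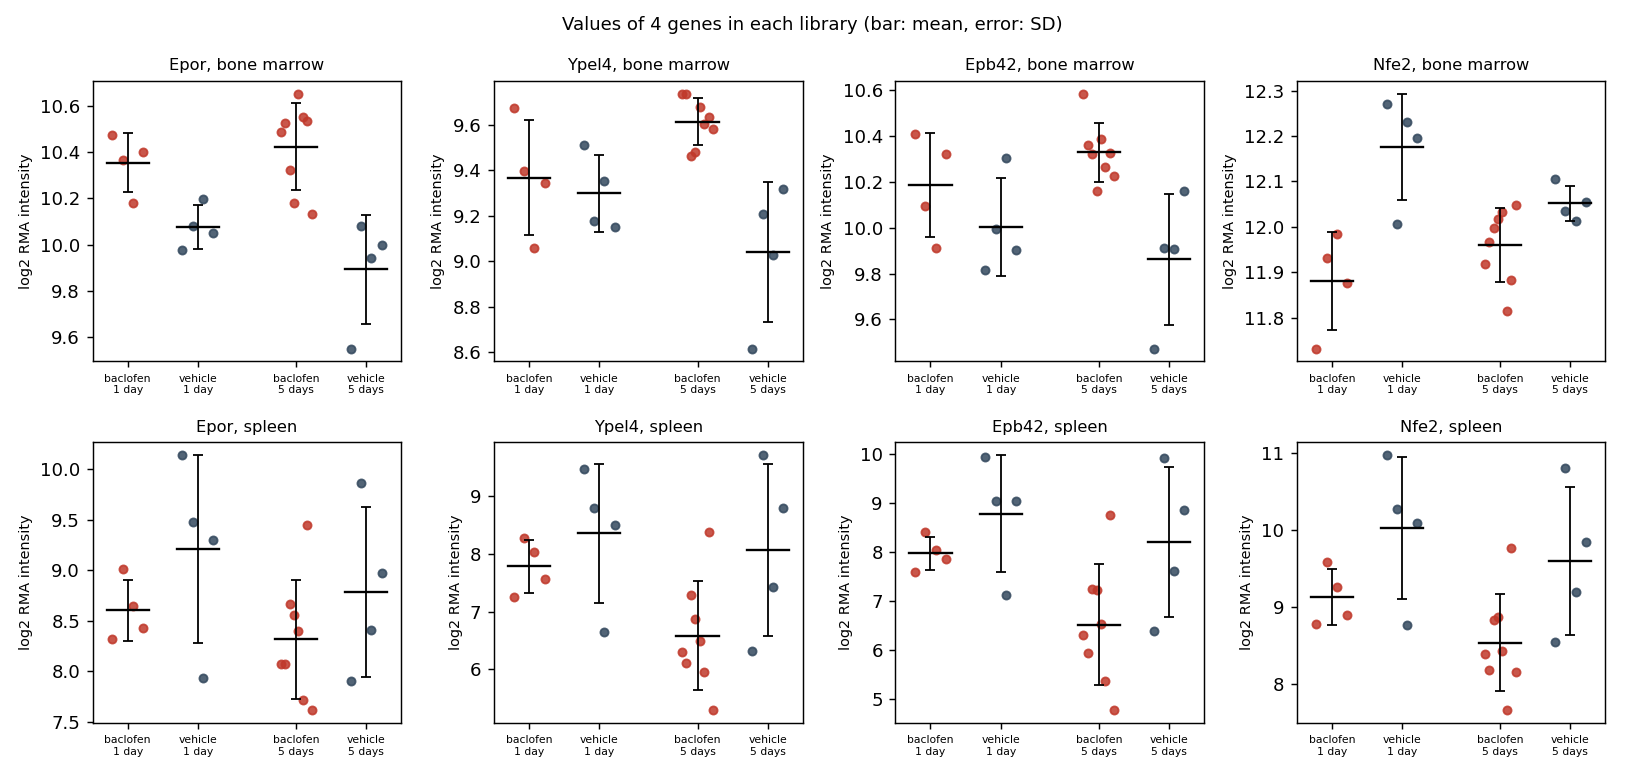
Log2 intensity of Epor, Ypel4, Epb42 and Nfe2 in each marrow library (upper row) and each spleen library (lower row), by treatment and days of dosing. Each point is 1 library, the bar is the group mean and the error bar the SD, and the y axes differ between panels and do not start at 0. Baclofen marrow lies above vehicle marrow after 5 doses for the first 3 genes, and the spleen groups overlap in all 4.

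The marrow counts rest in part on 1 vehicle library. Vehicle 5-day replicate 1 had the lowest value of its group for 28 of 30 genes and the lowest of all 20 marrow libraries for 26. The mean of the 30 genes was 10.96 there, against 11.47, 11.36 and 11.45 in the other vehicle marrows and 11.50 to 11.85 in the 8 baclofen marrows. Without that library 4 genes rose, namely Aqp1, Epor, Tspan33 and Ypel4, and the median difference was 0.29. In that setting 244 of all genes tested passed, against 1100 with all libraries. Epor was then 0.42 ± 0.10 higher (limma adjusted p = 0.0294) and Ypel4 0.43 ± 0.10 higher (adjusted p = 0.0356), while Gata1 was at 0.23 ± 0.09 and no longer passed (adjusted p = 0.134).

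Markers of granulocyte precursors lay the other way in marrow. Their mean ran from 12.57 to 13.18 in baclofen marrow and from 12.84 to 13.50 in vehicle marrow after 5 doses, and the highest value of all 20 marrow libraries was that of vehicle replicate 1. Of 6 such genes tested, 1 fell, Prtn3, the gene of proteinase 3 of neutrophil granules, by 0.46 ± 0.12 (limma adjusted p = 0.0268). Of 12 neutrophil markers, Lcn2 fell by 0.19 ± 0.06. Of 11 macrophage markers, Vcam1, an adhesion molecule, rose by 0.43 ± 0.09 and Cd5l, a secreted macrophage protein, by 0.63 ± 0.15, and the list's mean was 10.48 to 10.95 in baclofen marrow, against 10.34 to 10.49 in vehicle marrow. Without vehicle marrow replicate 1 neither Prtn3 nor Lcn2 passed, and Vcam1 and Cd5l did. The part of these cell types in the differences of the red cell genes was not tested.

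**Figure D3:**
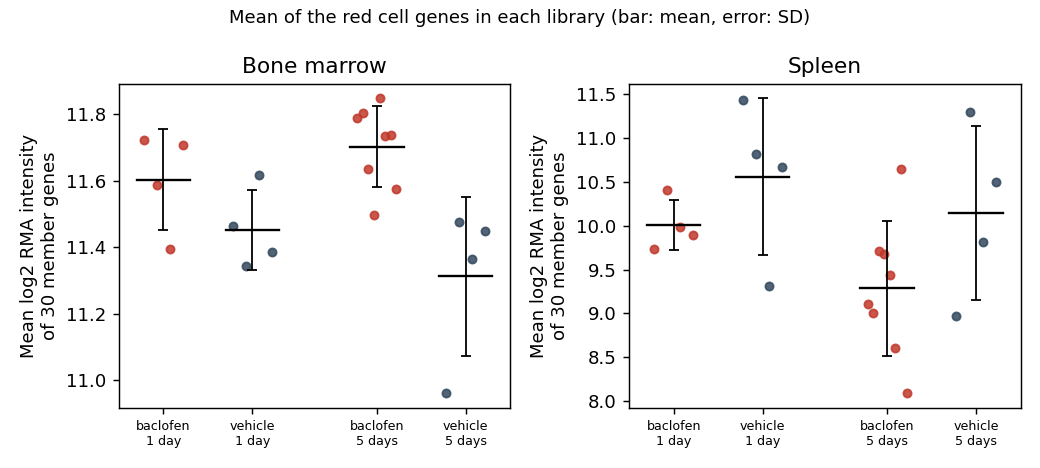
Mean log2 intensity of the 30 red cell genes in each library of marrow (left) and spleen (right), by treatment and days of dosing. Points are libraries, the bar is the group mean and the error bar the SD, and the y axes differ. In marrow after 5 doses the baclofen libraries lie between 11.50 and 11.85 and the vehicle libraries between 10.96 and 11.47. In spleen the libraries of every group but baclofen 1 day spread over more than 2 log2 units.

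After 1 dose the marrow showed 1 call among the 30 genes, in the direction opposite to that of the rises after 5 doses. Nfe2 had 11.73, 11.93, 11.98 and 11.88 in baclofen marrow, against 12.27, 12.01, 12.23 and 12.20 in vehicle marrow. The groups did not overlap, and Nfe2 fell by 0.30 ± 0.07 (limma adjusted p = 0.0111). In all, 7.36% of genes tested passed in marrow after 1 dose, 3.11% higher and 4.25% lower, and 7.69% had every baclofen value below every vehicle value, so 1 of 30 is no more than the background. The call was lost without baclofen replicate 1 (adjusted p = 0.0545) and in a fit of only these 8 libraries (adjusted p = 0.082).

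The other members leaned upward after 1 dose without passing. The median difference over the 30 genes was 0.17, with 27 above 0, and 7 had an unadjusted p under 0.05. So did 2629 of all 10916 genes tested, a share near that of the members. Tmod1 had the largest value, 0.41 ± 0.16 (limma adjusted p = 0.118). Epor had 10.48, 10.36, 10.18 and 10.40 in baclofen marrow, against 9.98, 10.08, 10.20 and 10.05 in vehicle marrow. Only the lowest baclofen and the highest vehicle value crossed, and the difference was 0.28 ± 0.12 (adjusted p = 0.148). Klf1 and Tal1 lay below 0, at -0.15 ± 0.13 and -0.04 ± 0.12, and Gata1 at 0.03 ± 0.10. Rhag was the only gene with every baclofen value above every vehicle value (5.57% of all genes were so placed). Baclofen replicate 3, the library with muscle transcripts, had the lowest value of its group for 28 of the 30 genes. Without it Tmod1 passed as well, so that 2 genes did, and the median was 0.27. The share of all genes that passed in that setting is not given here, so these 2 calls are not set apart from the background.

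Marrow values at 5 days were also set against those at 1 day. The change of the baclofen difference had a median of 0.25 over the 30 genes, with 29 above 0. None passed limma, and 5 had an unadjusted p under 0.05. Of all 10916 genes, 0 passed and 559 had an unadjusted p under 0.05. Ypel4 changed most by value, with an effect 0.50 ± 0.17 larger after 5 doses (adjusted p = 0.887). Among baclofen marrows the median difference between 5 and 1 doses was 0.10, and among vehicle marrows it was -0.14, with 28 of 30 below 0. Neither comparison passed for any member, and 0.623% and 0% of all genes passed. Unadjusted p was under 0.05 for 7 and 2 members, and for 1389 and 510 of all 10916 genes. The vehicle drift is part of the change of the baclofen difference, since the 2 share those libraries.

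In spleen nearly all of the 30 genes had lower means with baclofen on both days, and none passed limma. After 5 doses all 30 differences were below 0, with a median of -0.85 and a largest of -1.84, while the median of all genes was -0.004 and 4.43% of genes tested passed, 3.05% higher and 1.38% lower. Unadjusted p was under 0.05 for 7 of 30, and for 2822 of all 10916 genes. The median was -0.49 with vehicle replicate 2 left out, -1.27 with vehicle replicate 1 left out, and -1.67 with none of the 3 spleens that held liver transcripts. Of those 3, vehicle replicates 1 and 3 had the lowest means of the 30 genes in their group, 8.96 and 9.81. After 1 dose 28 of 30 were below 0, with a median of -0.57, and 1 had an unadjusted p under 0.05. Of all 10916 genes tested, 3498 had an unadjusted p under 0.05 and 15.5% passed, 7.64% higher and 7.91% lower. In 0 of the 30 genes did the spleen groups fail to overlap, on either day (after 1 dose 8.27% of all genes had every baclofen value above every vehicle value and 8.9% every one below, and after 5 doses 3.47% and 1.61%).

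The spread between spleens was several times that between marrows. The pooled SD within groups ran from 0.0891 for Nfe2 to 0.246 for Icam4 in marrow, with a median of 0.190 over the 30 genes. In spleen it ran from 0.342 for Mkrn1 to 1.18 for Epb42, with a median of 0.822. The genes were high or low together in the same spleens. Among the vehicle spleens after 5 doses, replicate 1 was lowest for 30 of 30 genes, and among those after 1 dose replicate 3 was lowest and replicate 1 highest for 30 of 30. Among the baclofen spleens after 5 doses, replicate 7 was highest for 30 of 30 and replicate 8 lowest for 28. Replicate 8 also had the highest excess of 3' over 5' control signal among the 20 spleens, 0.549 where the lowest was 0.280. With that RNA quality measure as a covariate the median of the 30 genes in spleen after 5 doses was -0.65. Over the 20 spleens Epb42 spanned 35.7-fold and the least variable member, Add2, 2.66-fold.

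Tmcc2 encodes a membrane protein of the endoplasmic reticulum and had the largest difference in spleen. After 5 doses it stood at 8.33, 9.41 and 11.27 (lowest, median and highest of 8) in baclofen spleen, against 9.58, 12.60, 10.80 and 11.95 in vehicle spleen. Vehicle replicates 1 and 3 lay inside the baclofen range, and the difference was -1.84 ± 0.55 (limma adjusted p = 0.0625). It passed without vehicle replicate 1, without baclofen replicate 7 and without the libraries that held liver or muscle transcripts. Epb42 ran from 4.78 over 6.42 to 8.75 in baclofen spleen, against 6.40, 9.92, 7.62 and 8.87 in vehicle spleen, a difference of -1.68 ± 0.66 (adjusted p = 0.128).

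Ypel4 and Trim10 followed in size in spleen after 5 doses. Ypel4 stood at 5.30, 6.39 and 8.38 in baclofen spleen, against 6.32, 9.71, 7.42 and 8.79 in vehicle spleen (-1.48 ± 0.59, limma adjusted p = 0.133). Trim10 stood at 7.11, 9.02 and 10.55, against 8.75, 11.71, 9.998 and 10.95 in vehicle spleen (-1.49 ± 0.56, adjusted p = 0.113). Kel stood at 6.95, 8.43 and 10.33 in baclofen spleen, against 8.14, 11.32, 9.17 and 10.19 in vehicle spleen (-1.18 ± 0.59, adjusted p = 0.212). In each the baclofen range covered the lower part of the vehicle range.

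The receptor and factor genes had a median of -0.94 in spleen after 5 doses. Nfe2 stood at 7.67, 8.41 and 9.77 in baclofen spleen, against 8.54, 10.80, 9.20 and 9.85 in vehicle spleen (-1.06 ± 0.41, limma adjusted p = 0.122). Klf1 stood at 8.51, 9.87 and 11.35, against 9.60, 12.17, 10.52 and 11.09 in vehicle spleen (-0.96 ± 0.52, adjusted p = 0.238). Epor stood at 7.62, 8.24 and 9.45, against 7.90, 9.87, 8.41 and 8.97 in vehicle spleen (-0.47 ± 0.38, adjusted p = 0.437). In each gene vehicle replicates 1 and 3 lay inside the baclofen range, and for Klf1 and Epor replicate 4 did as well. Gata1 differed by -0.50 ± 0.39.

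The smallest differences in spleen after 5 doses were those of Car1, at -0.15 ± 0.31, and Add2, at -0.17 ± 0.21. For Add2 the brightest probe set in spleen is not the brightest in marrow. The probe set used for marrow gave -0.89 ± 0.49 in spleen, so the small value belongs to 1 of its 5 probe sets. By role, beside that of the receptor and factors, the median in spleen after 5 doses was -0.91 for the membrane skeleton, -0.88 for the surface proteins, -0.65 for the enzymes and -1.10 for the carriers and other genes.

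After 1 dose the largest spleen difference was that of Klf1. It had 9.83, 10.83, 10.12 and 10.02 in baclofen spleen, against 12.33, 11.71, 9.87 and 11.67 in vehicle spleen. Vehicle replicate 3 lay among the baclofen values and the other 3 vehicle spleens lay above all of them. The difference was -1.20 ± 0.60 (limma adjusted p = 0.173). Car1 had 10.41, 11.02, 10.25 and 10.66 in baclofen spleen, against 12.01, 11.69, 10.25 and 11.67 in vehicle spleen (-0.82 ± 0.36, adjusted p = 0.123). Nfe2 had 8.78, 9.58, 9.26 and 8.90 in baclofen spleen, against 10.97, 10.27, 8.77 and 10.10 in vehicle spleen (-0.90 ± 0.47, adjusted p = 0.196). In both, the same vehicle replicate 3 was the exception. Without it 4 genes were lower, Car1, Gfi1b, Klf1 and Nfe2, and the median over the 30 was -1.04, with 27.9% of all genes tested passing in that setting. Without vehicle replicate 1, the highest of its group, the median was -0.28 and 0 passed. Mkrn1 and Bpgm, each at 0.04, were the only members above 0. In a fit over all probe sets the other Bpgm probe sets gave -0.07 and -0.18, and the other Mkrn1 probe sets -0.11 to 0.004. The sign therefore belongs to the probe set used.

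Other cell markers moved with these genes in spleen after 1 dose. Granulocyte precursor markers averaged 7.08 to 8.06 in baclofen spleen and 7.82 to 9.44 in vehicle spleen. Of 6 tested, 4 fell, among them Elane, the neutrophil elastase gene, by 1.24 ± 0.39 and Ms4a3 by 1.14 ± 0.37, and of 12 neutrophil markers 3 fell (limma). The mean of 11 mitosis genes was 8.78 to 9.50 in baclofen spleen and 8.56 to 10.64 in vehicle spleen, with 0 passing and 2 at an unadjusted p under 0.05. Of 9 T cell markers 1 rose and of 9 B cell markers 2 rose. Without vehicle replicate 3 the counts were 6 of 6 granulocyte precursor, 11 of 12 neutrophil and 8 of 11 mitosis genes lower, and 7 of 9 T cell and 5 of 9 B cell markers higher. After 5 doses the mean of the mitosis genes was 8.01 to 9.78 in baclofen spleen and 9.01 to 10.41 in vehicle spleen. All 11 then had an unadjusted p under 0.05 and 0 passed. The part of these markers in the red cell genes was not tested.

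Between days the spleen values also drifted without a call. Vehicle spleens after 5 doses lay below those after 1 dose for all 30 genes, with a median of -0.46 (0 at an unadjusted p under 0.05). Baclofen spleens did so for 29 of 30, with a median of -0.70 (7 at an unadjusted p under 0.05). Of all 10916 genes, 378 and 1618 had an unadjusted p under 0.05 in these comparisons, and 0% and 0.522% passed limma. The change of the baclofen difference had a median of -0.27, and 0 members passed or had an unadjusted p under 0.05.

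The treatment difference was then compared between the tissues, in 1 fit of marrow and spleen over the 10218 genes bright enough in both. After 5 doses the marrow difference minus the spleen difference was above 0 for all 30 genes, with a median of 1.25, while the median of all genes was 0.002. Tmcc2 passed, at 2.14 ± 0.58 (SE, limma adjusted p = 0.0425), where 2.17% of all genes passed, 1.35% in that direction. Unadjusted p was under 0.05 for 26 of the 30, and for 2397 of all 10218 genes. Among those that did not pass, the largest were Epb42, at 2.15 ± 0.70 (adjusted p = 0.08), Ypel4, at 2.05 ± 0.63 (adjusted p = 0.0663), and Trim10, at 1.89 ± 0.59 (adjusted p = 0.0721). The smallest was that of Mkrn1, at 0.61 ± 0.22, read from another probe set than the one used for marrow. That probe set differed by 0.29 in marrow and by -0.31 in spleen. The one used for marrow differed by 0.49 and by -0.61, so the small value belongs to the probe set. After 1 dose 29 of 30 were above 0, with a median of 0.74. None passed limma, and 1 had an unadjusted p under 0.05. Of all 10218 genes, 2182 had an unadjusted p under 0.05 and 1.22% passed, 0.46% higher and 0.763% lower. Without vehicle spleen 1-day replicate 3, 3 genes passed, Car1, Epor and Gfi1b. The share of all genes that passed in that setting is not given here, so these 3 calls cannot be told from a change over all genes.

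The count of genes with a tissue difference depended on single spleen libraries. After 5 doses it was 17 without vehicle spleen replicate 1, 19 without baclofen spleen replicate 7 and 3 without vehicle spleen replicate 3. It was 0 with any one of 14 other libraries left out and 1 with any one of 7 others left out, and 0 genes passed in the opposite direction in any setting. The share of all genes that passed with each single library left out is not given here. Without the 4 libraries that held transcripts of another tissue, 27 of 30 passed, all but Car1, Gata1 and Gfi1b, with a median of 2.11, and 9.53% of all genes passed. That setting leaves 2 vehicle spleens after 5 doses, those with the higher means of the 30 genes. Replicates 2 and 4 were kept, at 11.30 and 10.50, and replicates 1 and 3 left out, at 8.96 and 9.81. Leaving these out therefore also raised the vehicle mean. In that setting Epb42 stood at 3.34 and Tmcc2 at 3.24.

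**Figure D4:**
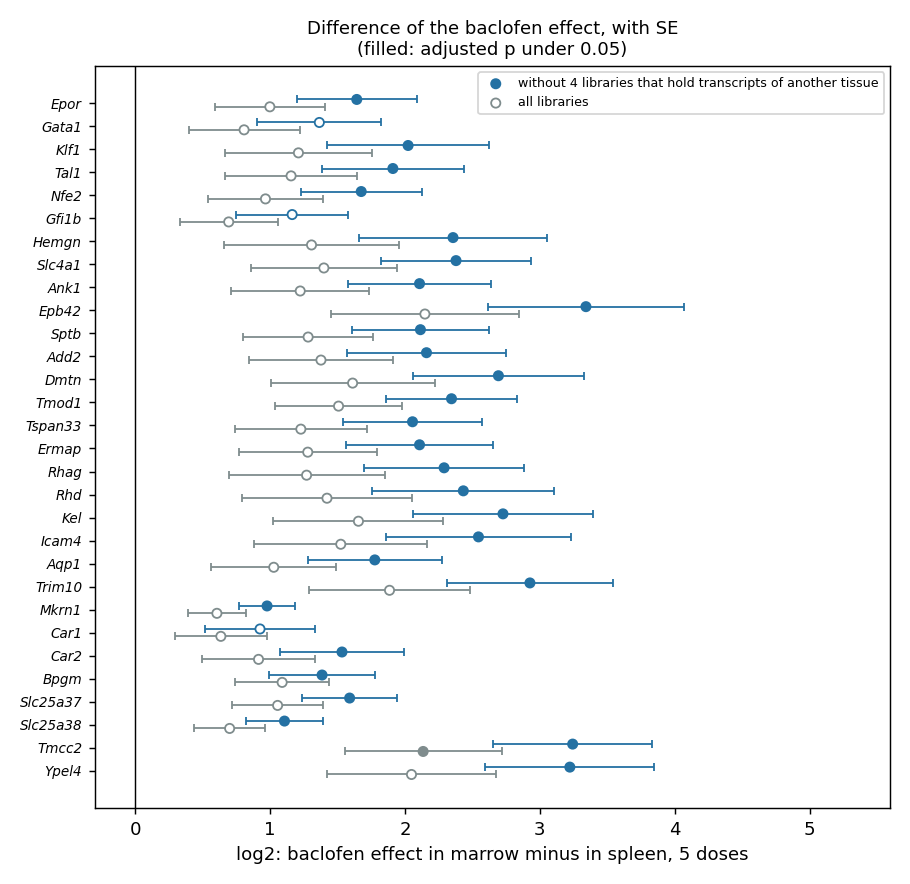
Baclofen minus vehicle in marrow, minus the same in spleen, after 5 doses, for each of the 30 genes (x axis, log2 units, with the standard error). Grey points use all libraries and blue points leave out the 4 libraries that held transcripts of another tissue. Those left out include vehicle spleens 1 and 3, which had the lowest means of the 30 genes in their group. Filled points passed at an adjusted p under 0.05, which is Tmcc2 alone with all libraries and 27 of 30 genes without the 4.

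Other genes of red cell formation were read from lists chosen with earlier results of these data known. Of all genes tested in marrow after 5 doses, 6.15% rose. In marrow after 5 doses 5 of 7 haem synthesis genes rose, with a median of 0.41, among them Fech, ferrochelatase, by 0.48 ± 0.10 (limma adjusted p = 0.00981), and Urod and Alad by 0.45 ± 0.10 and 0.44 ± 0.11. Of 14 other red cell proteins 8 rose, such as Stom, stomatin, by 0.33 ± 0.07. Of 8 iron uptake genes 2 rose, Abcb10 by 0.39 ± 0.10 and Tfr2, transferrin receptor 2, by 0.29 ± 0.09. Of 16 other factors and cofactors 4 rose, among them Foxo3 by 0.31 ± 0.06 and E2f2 by 0.42 ± 0.09. Of 11 genes of organelle clearance and chromatin condensation 5 rose, with Ulk1, a kinase that starts autophagy, up by 0.36 ± 0.07 and Ube2o, a ubiquitin-conjugating enzyme that remodels the proteome of the maturing red cell, by 0.53 ± 0.13.

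Genes of the immediate erythropoietin response and of cell division gave no call in marrow after 5 doses. Of 7 erythropoietin response genes 0 passed limma and 2 had an unadjusted p under 0.05, and the median was 0.05. Of 11 mitosis genes 0 passed and 4 had an unadjusted p under 0.05, with a mean of 10.97 to 11.21 in baclofen marrow and 10.94 to 11.17 in vehicle marrow. Only 1 adult globin gene, Hbb-b2, was tested. It differed by 0.32, with an unadjusted p under 0.05 in limma, and did not pass. Without vehicle marrow replicate 1, 0 of 7 haem synthesis genes and 0 of 8 iron uptake genes rose, 1 of 14 other red cell proteins rose (Stom), 2 of 16 other factors (E2f2 and Foxo3) and 1 of 11 organelle clearance genes (Ulk1). Fewer of all genes passed in that setting as well.

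In spleen the same lists had few calls. Of all genes tested there, 7.91% fell after 1 dose, and 1.38% fell and 3.05% rose after 5. After 1 dose 3 of 16 other factors fell, Myb by 0.49 ± 0.14, Bcl11a by 0.46 ± 0.14 and Zbtb7a by 0.23 ± 0.07 (limma), and without vehicle replicate 3 Myb passed with Lmo2 and Zfpm1 while Bcl11a and Zbtb7a did not. Hdac2, a histone deacetylase gene that red cell precursors use to condense their chromatin, fell by 0.44 ± 0.08 and Kmt5a, a histone H4 methyltransferase, by 0.57 ± 0.18. Pim1, a kinase gene induced by erythropoietin and other cytokines, fell by 0.35 ± 0.11 after 1 dose and by 0.53 ± 0.09 after 5. After 5 doses Gata2, the factor that GATA1 replaces as red cell precursors mature, rose by 0.41 ± 0.07 (adjusted p = 0.00434) and Jak2, the kinase bound to the erythropoietin receptor, by 0.25 ± 0.06, a call that Jak2 lost without vehicle replicate 1. Of 12 macrophage markers, which are no part of those lists, 1 fell on each day, and the list medians were -0.24 and -0.03. The gene was Spic, a factor that red pulp macrophages need in mice. It fell by 0.77 ± 0.15 after 1 dose and by 0.49 ± 0.13 after 5, the second of these not without vehicle replicate 1. Of 7 haem synthesis genes 0 passed on either day, with medians of -0.49 and -0.64, and 0 had an unadjusted p under 0.05.

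In liver, which makes no red cells in the adult, 16 of the 30 genes passed the brightness filter and 14 did not, among them Slc4a1, Epb42, Kel and Rhag. After 5 doses Slc25a37 rose by 0.34 ± 0.10 (limma adjusted p = 0.043), and Bpgm fell by 0.36 ± 0.09, Tspan33 by 0.31 ± 0.09 and Slc25a38 by 0.20 ± 0.06. These 4 of 16 compare with 10.6% of all genes tested, 4.86% higher and 5.75% lower. Without vehicle liver replicate 2 none passed, and 1 passed without vehicle replicate 3 or without baclofen replicate 6, and 2 passed with any one of 7 others left out. For these settings the share of all genes that passed is not given here. After 1 dose 0 of 16 passed, and 2 had an unadjusted p under 0.05. Of all 10916 genes, 1363 had an unadjusted p under 0.05 and 2.67% passed, 1.58% higher and 1.09% lower.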

How the data were processed

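Total RNA of liver, bone marrow and spleen was measured on 59 Affymetrix arrays. The deposited values are intensity on a linear scale, and per the submitters' processing notes the tools named for the series are RMA and limma, with no role or order. Versions and a genome build are not given in the sources used here. Values were transformed to log2 with no further normalization, and no 2 arrays were identical. Of 45101 probe sets, 34945 carried 1 gene symbol in the platform annotation, 932 several, 9160 none, and 64 were controls. A gene was read from its brightest probe set on average within a tissue, and genes at or above the 40th percentile of mean intensity were tested. This left 10916 genes, with a lowest mean intensity of 83.6 in marrow and 79.5 in spleen.

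Fits used limma 3.58.1 (R 4.3.3), on the 4 groups of a tissue or, for the tissue difference, on the 8 groups of marrow and spleen. The p-values are 2-sided, with Benjamini-Hochberg adjustment over every gene tested, and a gene passed under 0.05. SE is limma's standard error. The fits were tested on simulated data with known changes. Members and gene lists were chosen with earlier results of these data known. Members described by sample were Epor, Gata1 and Klf1 and, in each of 6 role groups, the member with the smallest adjusted p in marrow and that in spleen, with the lowest, median and highest value for groups of 8, in the comparisons where they are described. The role groups and the 4 libraries left out were chosen in the same knowledge.

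For the livers taken after 1 dose, titles and treatment characteristics set the group, because source names disagree for some. Alternatives were the filter, the choice or mean of probe sets, quantile normalization, centring, trend and robust options, fewer or all groups, array weights, an RNA quality covariate, adjusted p under 0.01, a block for the replicate number, source names in place of titles for livers after 1 dose, and leaving out libraries.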

Additional observations from a re-analysis of the deposited data

Results flagged for a closer look

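In 112 groups of samples tested, each 1 gene or the mean of the 30 genes in 1 group, 3 samples lay far from the others. Chance flags about 1 group in 20. Gata1 stood at 10.54 in marrow baclofen 1-day replicate 3, the library with muscle transcripts, while its 3 group mates lay at 10.82 to 10.84. Mkrn1 stood at 11.01 in spleen baclofen 5-day replicate 8, while the 7 others of that group lay at 11.63 to 12.11. Tmcc2 stood at 13.08 in marrow vehicle 1-day replicate 3, while the 3 others of that group lay at 12.73 to 12.79. The baclofen effect on Tmcc2 after 5 doses differed between the tissues, by 2.14 on the log2 scale for marrow minus spleen (limma adjusted p = 0.0425), and that call was lost without any 1 of 14 libraries.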

How the results depend on the processing

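None of the 24 calls in marrow changed direction in any setting. Of 596 repeats of them, 473 passed again and 123 did not, and the cause was not tested. The counts of this section stand without the share of all genes that passed in the same setting. They do not tell a change of the members from one of all genes. Array weights gave 14 genes in marrow after 1 dose, 5 in spleen after 1 dose, 5 in spleen after 5 doses, 1 in liver on each day, 1 and 3 between the days of baclofen in marrow and in spleen, 14 for the tissue difference after 1 dose and 27 for that after 5. An adjusted p under 0.01 gave 4 in marrow after 5 doses (main count 23) and 0 in marrow after 1 dose, in liver after 5 and for the tissue difference after 5. A fit of only the groups compared gave 0 in marrow after 1 dose, 1 in liver after 5 doses and 0 for the tissue difference after 5. Averaging the probe sets of a gene gave 2 in marrow after 1 dose and 2 for the tissue difference after 5. Without the brightness filter liver after 5 doses had 1 and the tissue difference 0, and the RNA quality covariate left 1 in liver and 16 in marrow after 5 doses. All 12 groups together gave 7 for the tissue difference after 5 doses. Without the 4 libraries with transcripts of another tissue, marrow after 1 dose had 2, spleen after 5 had 1 and the tissue difference after 5 had 27.

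With the replicate block 0 genes passed in marrow after 5 doses (median 0.41), 0 in liver after 5 and 3 for the tissue difference after 5. Same-numbered baclofen and vehicle samples mostly did not deviate together over all genes (r of -0.458 to 0.271, above 0.1 in 3 of 16 pairs). Such correlations cannot exclude a weak factor shared by a pair, and the labels do not say whether the numbers pair these groups. Same-numbered marrows and spleens of 1 treatment and day had r of -0.248 to 0.463, above 0.1 in 10 of 20 pairs. The labels do not say that they share a mouse, and the tissue difference was fitted as if they did not. What the calls lost under the block mean for the effect was not tested. The marrow median after 5 doses was 0.41 with the block and 0.44 without it, and the block changed no other count. Leaving out each replicate in turn gave 0 to 2 genes in marrow after 1 dose, 4 to 24 after 5, 0 to 4 in spleen after 1, 0 to 1 after 5, 0 to 3 in liver after 5, and 0 to 3 and 0 to 19 for the tissue difference after 1 and 5. Signal over background limits liver, where 14 of 30 genes were too dim to test.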

Other observations

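Several genes had more than 1 probe set, and in a fit over all probe sets their values did not always match. In marrow after 1 dose the dimmest of 3 Dmtn probe sets differed by 0.78 ± 0.15 (limma adjusted p over all probe sets = 0.00584), while the brightest, which stands for the gene, differed by 0.16 ± 0.16. The dimmer of 2 probe sets of Sptb, the beta spectrin gene, differed by 0.07 ± 0.08 in marrow after 5 doses, against 0.48 ± 0.11 for the brighter. Whether these probe sets read different transcripts was not tested.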
